A study of Mus musculus with 7 samples.

Results

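Hyaluronan genes were examined in the lungs of bleomycin-challenged mice with or without hyperbaric oxygen (HBO). The 8 genes were the synthases Has1, Has2 and Has3, the hyaluronidases Hyal1 and Hyal2, the receptors Cd44 and Lyve1, and the secreted hyaluronan binder Tnfaip6, out of 55401 genes in the count matrix. They were taken by name as a gene family, and were chosen on measured values, because Has1 was lower in the HBO-treated mice in the contrast used here. The differences between the groups are therefore given for these 8 genes as a description, with no test. All 8 were found by symbol, and all 8 passed the filter on low counts that left 17465 genes for the fit. Male C57BL/6 mice, 6 to 8 weeks old and weighing 20 to 25 g, had all received bleomycin, an agent that injures and scars the lung, and no group without bleomycin was analysed here. From day 7, the BLM+HBO group (n = 3) breathed oxygen at 2.5 ATA for 90 min a day over 14 days, whereas the BLM group (n = 4) was, per the labels, kept in the chamber for the same time without pressurized oxygen. The study's methods instead describe these mice as left without treatment, so that the sources differ on what the BLM group received. RNA was measured in whole lung lobes at day 21, 1 library per mouse. Bleomycin lung scarring in mice is an acute injury model, which limits what the groups stand for.

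Hyaluronan is a long, unbranched sugar polymer of the extracellular matrix, which synthases in the cell membrane make from UDP-glucuronic acid and UDP-N-acetylglucosamine and push directly out of the cell. Hyaluronidases cut it into fragments, and cells bind it through surface receptors, of which CD44 is widespread and LYVE1 is best known from lymphatic endothelium and some tissue macrophages. In the lung, hyaluronan accumulates after injury and is a recognised component of scarring tissue.

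The synthases have related sequences, so the sequences behind their counts were compared first. Over the aligned coding bases, Has1 was 62.0% identical to Has2 and 67.4% identical to Has3, and Has2 was 68.1% identical to Has3. The longest run of identical bases was 17 for Has1 with either of the others and 23 for Has2 with Has3, and for Hyal1 with Hyal2, which were 60.8% identical, it was 14. The study kept only reads longer than these runs, so a full read could not match both coding sequences of a pair exactly. The most alike stretch of 90 coding bases lying in 1 exon of each synthase is given here, 5′ to 3′ on the coding strand, from GENCODE vM21 transcripts on GRCm38. It lies in exon 5 of Has1 at chr17:17844149-17844238 on the minus strand, in exon 4 of Has2 at chr15:56668181-56668270 on the minus strand, and in exon 4 of Has3 at chr8:106878223-106878312 on the plus strand. Capitals mark the 66 of 90 bases that all 3 genes share.
Has1: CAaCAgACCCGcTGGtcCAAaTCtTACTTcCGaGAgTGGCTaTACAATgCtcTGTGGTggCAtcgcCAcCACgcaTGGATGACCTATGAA
Has2: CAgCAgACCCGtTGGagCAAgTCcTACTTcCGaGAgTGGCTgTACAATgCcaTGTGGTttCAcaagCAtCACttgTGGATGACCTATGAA
Has3: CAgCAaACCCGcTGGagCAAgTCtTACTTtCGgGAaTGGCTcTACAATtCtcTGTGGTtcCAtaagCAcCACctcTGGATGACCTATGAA
The bases in lower case, which differ in at least 1 of the 3 genes, are spread along the stretch except for its end.

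The window before the start of Has1, 1 of the 2 genes whose groups did not overlap, is shown next, since the RefSeq promoter table (GRCm38.p6) held 5 of the 8 genes, namely Has1, Hyal1, Hyal2, Cd44 and Tnfaip6. The stretch, at chr17:17855206-17855438 on the minus strand, covers 233 bases upstream of the gene in GENCODE vM21, and its capitals mark a cAMP response element (TGACGTCA) and a CCAAT box (CCAAT), found by a search of both strands.
Has1 upstream: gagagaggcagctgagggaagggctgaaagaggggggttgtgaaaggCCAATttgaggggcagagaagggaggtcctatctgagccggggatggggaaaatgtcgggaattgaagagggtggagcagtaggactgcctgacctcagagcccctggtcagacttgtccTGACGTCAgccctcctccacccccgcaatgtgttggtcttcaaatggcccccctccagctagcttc
Counted from the RefSeq start, the TGACGTCA lay at -83 to -76 and the CCAAT at -203 to -199, without overlap. TGACGTCA was present in 1.55% and CCAAT in 33.8% of 32851 mouse promoter windows of 250 bases. Of the other motifs searched, Tnfaip6 held an AP-1 site (TGANTCA, in 6.75% of windows) at -142 to -136, and Cd44 held 1 form of the hypoxia response element core (ACGTG, in 16.6% of windows) at -29 to -25. The motifs were chosen after the sequences were seen, and a match describes letters only.

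The libraries held between 18157161 and 26365969 counts. On the first principal component (37.3% of the variance), BLM+HBO 2 lay at -0.996, between the BLM mice (-47.6 to -6.08) and BLM+HBO 3 at 37.8 and BLM+HBO 1 at 54.8, and nearest to BLM 4 at -6.08. Fitted changes that moved by over 1.5 times or changed sides of the thresholds without BLM+HBO 2 are also given without it. Lung identity was checked by markers fixed for alveolar type 1 and type 2 cells, club cells and capillary endothelium, and all of these markers passed the filter. Heart muscle markers were also present, and their summed level was 78.5 to 204 CPM in BLM and 193 to 756 CPM in BLM+HBO. By the thresholds given below, 11 of 12 passed as higher in BLM+HBO, beside 3.4% of all genes tested. Each library came from 1 mouse, so that P-values measure the spread between mice.

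Has1 and Has2 were lower in every BLM+HBO mouse than in every BLM mouse, whereas Has3 was level between the groups. Has1 (ENSMUSG00000003665.7, chr17:17843323-17855205) encodes a synthase typically low in resting tissue. Its library-scaled read counts (CPM, normalized between mice by TMM) were 12.5, 8.90, 7.25 and 9.53 in BLM 1 to BLM 4, and 2.34, 4.64 and 2.85 in BLM+HBO 1 to BLM+HBO 3. The lowest BLM mouse thus lay above the highest HBO-treated mouse, BLM+HBO 2. The means were 9.55 ± 2.19 (SD, n = 4) and 3.28 ± 1.21 (SD, n = 3), and the fitted level in BLM+HBO was 0.344 times that in BLM, a log2 fold change of -1.54 with a standard error of 0.29. These rest on 132 to 227 reads in each BLM mouse and 44 to 97 in each BLM+HBO mouse.

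Has2 (ENSMUSG00000022367.7, chr15:56665627-56694539) encodes the synthase required for heart development in the embryo and the main one in many mesenchymal cells. It measured 23.0, 9.52, 8.13 and 17.3 CPM in BLM 1 to BLM 4 and 1.12, 6.22 and 3.26 CPM in BLM+HBO 1 to BLM+HBO 3. The groups did not overlap, but the mice within each group differed widely, with BLM+HBO 1 far below the other two. These values rest on 148 to 417 reads in each BLM mouse and on 21, 130 and 87 reads in BLM+HBO 1 to BLM+HBO 3. The means were 14.5 ± 6.94 (SD, n = 4) and 3.53 ± 2.56 (SD, n = 3), and the log2 fold change was -2.03 with a standard error of 0.54, or 0.245 times the BLM level. Without BLM+HBO 1 it was -1.62, and without BLM+HBO 2 it was -2.69, a move of over 1.5 times on the linear scale from the value over all mice. For Has1 the same 2 values were -1.35 and -1.87.

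Has3 (ENSMUSG00000031910.14, chr8:106870242-106884566) encodes the remaining synthase, the lowest of the 3 in mean TPM over the 7 mice. It measured 3.58, 2.37, 3.51 and 2.58 CPM in BLM and 2.77, 3.45 and 3.07 CPM in BLM+HBO. All 3 HBO-treated mice fell inside the BLM range. The log2 fold change was 0.04 with a standard error of 0.26, and its sign was opposite in 4 of 15 other fits.

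**Figure D1:**
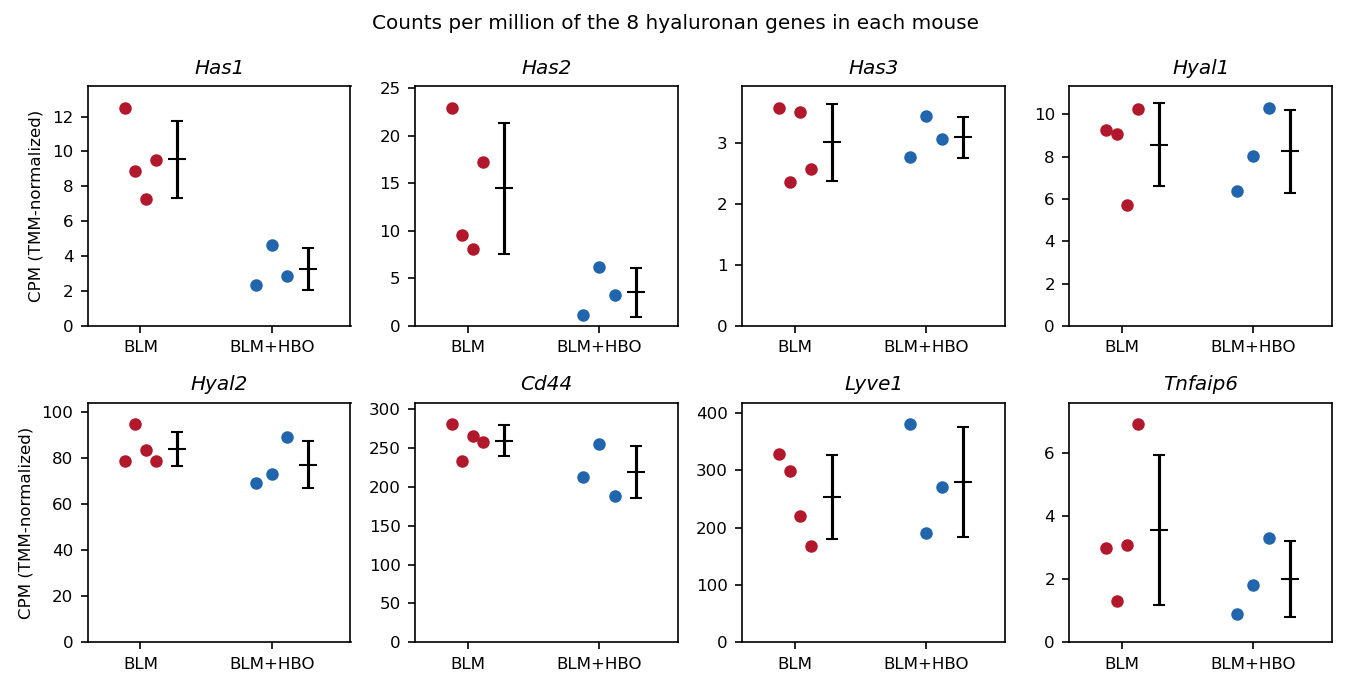
CPM (y axis, from 0) of the 8 hyaluronan genes in each mouse, with BLM in red (n = 4) and BLM+HBO in blue (n = 3); the black bar gives the mean and 1 SD. Has1 and Has2 are the panels in which the groups do not overlap, with BLM+HBO means of 3.28 and 3.53 CPM against 9.55 and 14.5 CPM in BLM.

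The thresholds of the fit were a fold change above 1.5 together with P below 0.05, before adjustment, in edgeR's quasi-likelihood test. Of the 8 genes, 2 lay past them as lower in BLM+HBO, where 2.89% of all genes tested were called lower, and none lay past them as higher, where 3.4% of all genes tested were called higher. The groups did not overlap for 2 of 8 as lower (4.72% of all genes tested) and for none as higher (4.05% of all genes tested). Nothing is read from these counts, because the contrast chose the genes. Across all genes tested, edgeR called no gene at an adjusted P below 0.05, with 1861 genes at an unadjusted P below 0.05, and DESeq2 called 128. The median log2 fold change was -0.18 over the 8 genes and 0.01 over all genes tested.

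The synthases were next added up on a per-length scale, TPM, which was made from the counts and the deposited gene lengths. The summed TPM of the 3 genes was 27.7, 13.5, 11.8 and 20.7 in BLM 1 to BLM 4 and 3.65, 9.55 and 5.54 in BLM+HBO 1 to BLM+HBO 3. Every HBO-treated mouse lay below every BLM mouse. Has1 took 31.6% to 42.9% of the sum in BLM and 33.5% to 42.6% in BLM+HBO, with group means of 36.5% and 36.7%. The Has2 share was 47.1% to 62.0% in BLM and 21.7%, 48.4% and 40.9% in the HBO-treated mice. The Has3 share was 6.14% to 13.5% in BLM and 35.7%, 17.8% and 25.6% in BLM+HBO, so its lowest HBO-treated mouse stood above the BLM range while its own TPM stayed between 1.09 and 1.78 in all 7 mice. The length used changed which synthase led in every mouse but BLM+HBO 1, where Has1 led either way. The deposited Has1 length of 4518 bases includes a transcript that keeps introns. With the longest coding transcript of each gene as length, 2095 bases for Has1, Has1 made up 49.8% to 61.6% of the sum in every mouse. That share may be too high, since all Has1 reads were set against the shorter length.

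**Figure D2:**
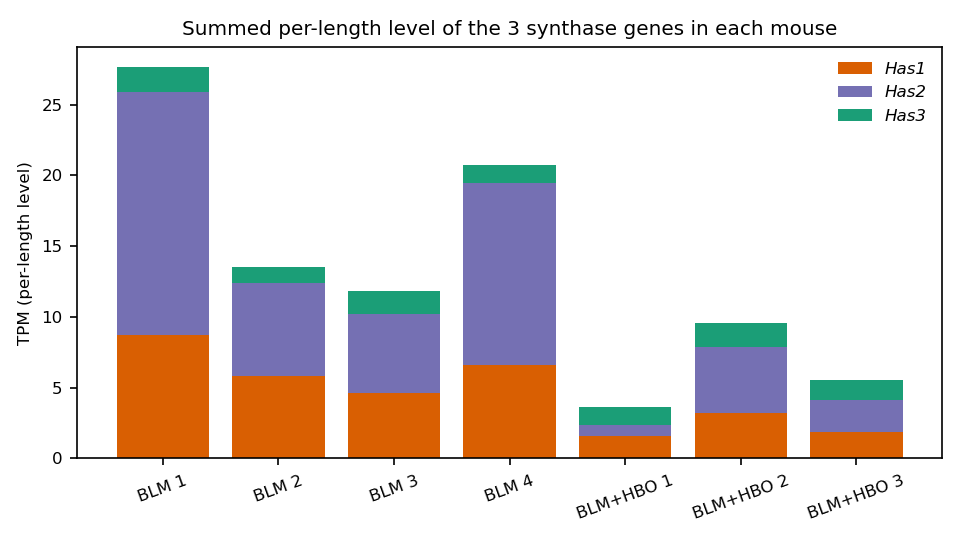
Stacked bars of TPM (y axis) of Has1, Has2 and Has3 in each of the 7 mice (x axis). The totals run from 11.8 to 27.7 TPM in BLM and from 3.65 to 9.55 TPM in BLM+HBO, and the Has3 segment stays between 1.09 and 1.78 TPM.

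The hyaluronidase genes overlapped between the groups. Hyal2 (ENSMUSG00000010047.12, chr9:107567945-107572779) encodes a hyaluronidase anchored at the cell surface that cuts long chains into intermediate fragments. It measured 78.7, 94.5, 83.3 and 78.6 CPM in BLM and 69.3, 73.0 and 88.8 CPM in BLM+HBO, with a log2 fold change of -0.12 and a standard error of 0.12. BLM+HBO 1 and BLM+HBO 2 lay below all BLM mice, and BLM+HBO 3 lay within them. Hyal1 (ENSMUSG00000010051.15, chr9:107576927-107581710) encodes a lysosomal hyaluronidase that breaks such fragments down further. It measured 9.25, 9.07, 5.71 and 10.3 CPM in BLM and 6.39, 8.04 and 10.3 CPM in BLM+HBO. The ranges were nearly the same, the log2 fold change was -0.05 with a standard error of 0.25, and leaving out BLM+HBO 1 turned it to 0.10.

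The count of Hyal1 is uncertain, since 51.9% of its exon bases also belong to other genes on the same strand, 1920 bases to Naa80 and 159 to Hyal3. By default featureCounts assigns no read that overlaps more than 1 gene, and the study's methods state default use. Has3 shared 5.52% of its exon bases with Chtf8 and Has2 shared 4.3% with Has2os, both on the opposite strand, and the other 5 genes shared none.

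Of the receptors, Cd44 was slightly lower on average in BLM+HBO and Lyve1 varied among mice of both groups. Cd44 (ENSMUSG00000005087.17, chr2:102811141-102901665), which encodes the main hyaluronan receptor of leukocytes and mesenchymal cells, measured 280, 233, 266 and 258 CPM in BLM. In BLM+HBO it measured 212, 254 and 189 CPM. BLM+HBO 1 and BLM+HBO 3 lay below every BLM mouse, and BLM+HBO 2 lay inside the BLM range. The log2 fold change was -0.25 with a standard error of 0.13, and without BLM+HBO 2 it was -0.37. Its 9 annotated transcripts, the longest coding one with 19 exons, are summed in 1 count, so that splice forms were not resolved.

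Lyve1 (ENSMUSG00000030787.4, chr7:110850607-110863239) encodes the receptor of lymphatic vessels and of some macrophages that lie along blood vessels. It measured 329, 299, 221 and 167 CPM in BLM and 380, 190 and 270 CPM in BLM+HBO. The highest value of all was BLM+HBO 1 and the lowest was BLM 4, and the other mice of both groups lay between them. The log2 fold change was 0.14 with a standard error of 0.27, and it was -0.14 without BLM+HBO 1. Other markers of the same cells had mostly lower means in BLM+HBO. The summed level of 5 markers of lymphatic endothelium was 127 to 239 CPM in BLM and 120 to 135 CPM in BLM+HBO, and the 4 that passed the filter all had a lower mean in BLM+HBO, with Reln past the thresholds. Of 5 markers of Lyve1-bearing macrophages, Folr2, Cd163 and F13a1 passed the thresholds as lower in BLM+HBO, beside 2.89% of all genes tested. Timd4, at 5 to 23 reads in each mouse, and Gas6 had log2 fold changes of 0.35 and 0.02. The summed level was 577 to 831 CPM in BLM and 577 to 704 CPM in BLM+HBO. Most of this sum was Gas6, at 504.5 to 666 CPM in each mouse.

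Tnfaip6 (ENSMUSG00000053475.5, chr2:52038009-52056686) encodes TSG-6, a protein secreted in inflammation that binds hyaluronan and moves heavy chains of inter-alpha-inhibitor onto it. It measured 2.97, 1.30, 3.07 and 6.90 CPM in BLM and 0.905, 1.82 and 3.30 CPM in BLM+HBO. The groups overlapped, with BLM 4 above all others. Reads were few, at 23 to 131 in each BLM mouse and 17 to 88 in each BLM+HBO mouse. The log2 fold change was -0.81 with a standard error of 0.57, and it ran from -1.38 without BLM+HBO 3 to -0.27 without BLM 4.

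The spread among mice of a group differed between the 8 genes. The SD of log2 CPM within groups was 0.933 for Has2 and 0.922 for Tnfaip6, above 96.6% and 96.5% of all genes tested, whose median was 0.246. It was 0.399 for Has1, 0.466 for Lyve1, 0.360 for Hyal1 and 0.248 for Has3. Hyal2 and Cd44 were the steadiest, at 0.153 and 0.163. No mouse stood far enough from its group to be an outlier by Dixon's criterion in the BLM values of any of the 8 genes, and groups of 3 were not examined.

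Compared per length, Lyve1 had the highest mean level of the 8 genes and Has3 the lowest, although Has2 was below Has3 in BLM+HBO 1 (0.793 against 1.30 TPM). Mean TPM over the 7 mice was 275 for Lyve1, 108 for Cd44, 74.4 for Hyal2, 7.12 for Has2, 6.80 for Hyal1, 5.18 for Tnfaip6, 4.64 for Has1 and 1.45 for Has3. The order pooled both groups: in BLM+HBO alone the means were 6.60 for Hyal1, 3.54 for Tnfaip6, 2.56 for Has2 and 2.22 for Has1, against 6.94, 6.41, 10.5 and 6.46 in BLM. The mean log2 ratio of neighbours was 1.31 ± 0.54 for Lyve1 over Cd44, 0.53 ± 0.28 for Cd44 over Hyal2, 3.92 ± 1.43 for Hyal2 over Has2 and 1.45 ± 0.94 for Has1 over Has3 (SD, n = 7). Each of these 4 ratios had the same sign in 7 of 7 mice and an exact two-sided sign-flip permutation P of 0.0156, the smallest that 7 mice allow, and 0.0273 after Benjamini-Hochberg adjustment over the 7 pairs. The pairs were set by the same TPM values, and the ratios with Has1 or Has2 include the difference between the groups. Mean Has3 was 1.43 TPM in BLM and 1.47 TPM in BLM+HBO. The 4 genes in between did not differ from their neighbours beyond the spread, with adjusted P = 0.51 for Has2 and Hyal1 (mean log2 ratio -0.44, positive in 3 of 7 mice), 0.175 for Hyal1 and Tnfaip6 and 0.766 for Tnfaip6 and Has1 by the same exact permutation test. With coding transcript lengths, Cd44 no longer differed from Hyal2 (0.13, exact permutation adjusted P = 0.25). With lengths that leave out bases shared with other genes, Hyal1 stood above Has2 and Tnfaip6 (exact permutation adjusted P = 0.0365 and 0.0219).

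**Figure D3:**
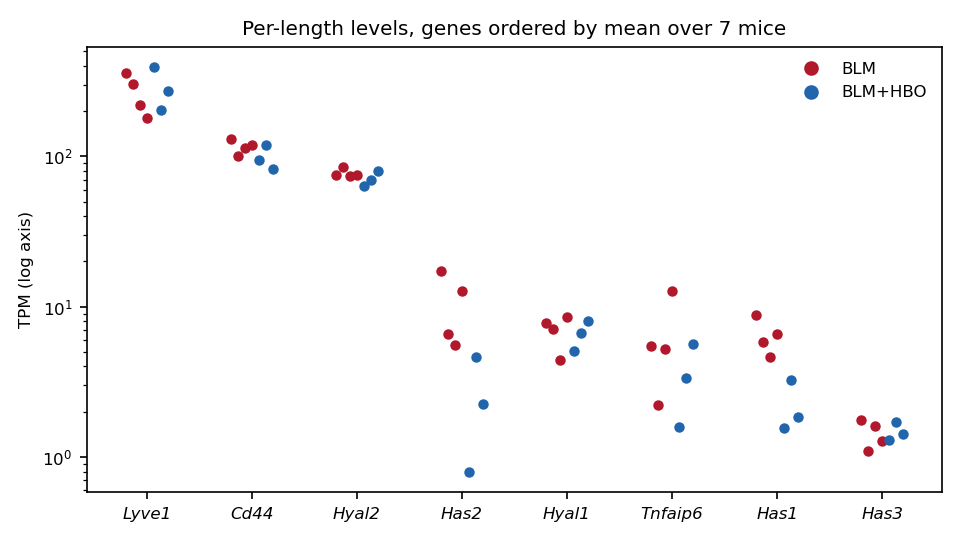
TPM (log axis) of the 8 genes in each of the 7 mice, ordered by mean, with BLM in red and BLM+HBO in blue. Lyve1, Cd44 and Hyal2 lie at 63.2 TPM or above, and the other 5 genes lie at 17.2 TPM or below.

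Has1 and Has2 varied together among mice, with a Pearson r of 0.93 between their log2 CPM values after each group's mean was removed, over 7 mice that share libraries and tissue composition. The lowest value among the 28 pairs was -0.73, for Hyal2 and Cd44. Among 14147 protein-coding genes, those with the pattern most like Has1 by this measure were 1810055G02Rik (r = 0.993), Chsy3 (r = 0.991) and Rrad (r = 0.991), and those most like Has2 were Sec23ip (r = 0.995), Tnfsf9 (r = 0.989) and Zfp532 (r = 0.987). The closest to Has3 were Arl8a, Rexo4 and Kcnmb1, and the closest to Cd44 were Txnrd1, Adamts1 and Fgd3. Fgd6, Cdc42bpb and Heatr5b followed Hyal1, and Tcf7l1, Camk2n1 and Tmie followed Hyal2. Prrg1, Sumo2 and Fam136a followed Lyve1, and Ndc80, Phf21b and Plxdc1 followed Tnfaip6, all at r between 0.972 and 0.999. With 7 mice and so many genes, values this high are a description only. When the group means were not removed, r for the same pairs ran from 0.298 (Zfp532 with Has2) to 0.998 (Sec23ip with Has2). It was 0.454 for Tmie with Hyal2, so that not all of these genes followed their partner over the 2 groups.

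Around these 8 genes, 49 other genes of hyaluronan biology were listed, of which 38 passed the filter. In BLM+HBO, 28 of the 38 had a lower mean and 10 a higher one, and the median log2 fold change was -0.23. By the same thresholds 5 of 38 were lower and none was higher, beside 2.89% and 3.4% of all genes tested. Without BLM+HBO 2 the counts were 10 and 1, where 968 and 946 of all 17879 genes tested were called lower and higher. With every mouse kept, 504 and 594 of all 17465 genes tested were called. The 5 were Gfpt2, Vcan, Ptx3, Mmp14 and Spp1, none of which passed an adjusted P of 0.05 over all genes tested. Nothing is read from these counts, because the genes were listed with earlier results of these data known.

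Among the genes that supply the sugar precursors, 6 of 6 tested had a lower mean in BLM+HBO and 1 passed the thresholds. This was Gfpt2, a rate-limiting enzyme of the hexosamine pathway, at 44.4, 33.6, 25.6 and 27.0 CPM in BLM and 10.5, 26.3 and 15.4 CPM in BLM+HBO. BLM+HBO 2 lay among the BLM mice and the other two below them (log2 fold change -0.91, standard error 0.30, edgeR adjusted P = 0.423). Without BLM+HBO 2 the log2 fold change was -1.33. Gfpt1, the related gene on the same list, had means of 97.4 CPM in BLM and 93.3 CPM in BLM+HBO. Its log2 fold change was -0.06 with a standard error of 0.11, so that 1 of the 6 lower means was nearly level. Ugdh, which makes UDP-glucuronic acid, had a log2 fold change of -0.29 with a standard error of 0.13 and did not pass (edgeR adjusted P = 0.475).

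Of the other genes of hyaluronan turnover, none of 6 passed. Cemip, which encodes a hyaluronan-degrading protein of fibroblasts, measured 67.5, 33.0, 41.9 and 19.7 CPM in BLM and 1.86, 43.8 and 5.85 CPM in BLM+HBO. BLM+HBO 2 stood at the BLM level and the other two far below it, and the log2 fold change of -1.24 had a standard error of 0.83. Without BLM+HBO 2 it was -3.36 with a standard error of 0.57 and passed (edgeR adjusted P = 0.0332). Cemip2, a membrane-bound relative, was at 0.08 with a standard error of 0.13. Hyal3, the neighbour of Hyal1, was low, at 0.549 to 1.38 CPM. Hyal5 and Spam1, hyaluronidases of sperm, were at 0 counts in every mouse. Gusb, a lysosomal enzyme that trims hyaluronan fragments from their ends, did not overlap between the groups and had a log2 fold change of -0.42 with a standard error of 0.14, which is under the fold threshold, and -0.59 without BLM+HBO 2, which is past it.

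Among the other receptors, 6 of 6 had a lower mean in BLM+HBO and none passed the thresholds. Hmmr, which encodes a hyaluronan-binding protein of dividing cells, had a log2 fold change of -0.64 with a standard error of 0.32, and passed at -1.11 without BLM+HBO 3. Tlr2, an innate immune receptor reported to sense hyaluronan fragments, had one of -0.53 with a standard error of 0.18, with an edgeR adjusted P of 0.423 and a fold change too small for the thresholds, which it passed at -0.76 without BLM+HBO 2 and at -0.61 without BLM 2.

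Among 10 tested matrix and plasma binders, 6 had a lower mean in BLM+HBO and 4 a higher one, with a median log2 fold change of -0.03, and Vcan and Ptx3 passed as lower. The 4 with a higher mean were Bcan, Hapln3, Itih1 and Itih4, at 0.60 to 0.93, and none of them passed. Itih1 was nevertheless higher in every BLM+HBO mouse than in every BLM mouse. It measured 0.826, 1.01, 1.43 and 1.32 CPM in BLM and 2.29, 1.44 and 1.84 CPM in BLM+HBO. Vcan encodes versican, a large proteoglycan that binds hyaluronan in provisional matrix, and measured 79.7, 36.4, 29.5 and 47.9 CPM in BLM and 24.3, 27.6 and 17.4 CPM in BLM+HBO. Ptx3 encodes a pentraxin that helps to cross-link hyaluronan carrying heavy chains, and measured 15.8, 13.6, 18.3 and 10.6 CPM in BLM and 3.89, 8.28 and 8.89 CPM in BLM+HBO. Neither gene overlapped between the groups. The log2 fold changes were -1.07 with a standard error of 0.32 for Vcan and -1.05 with a standard error of 0.30 for Ptx3 (edgeR adjusted P = 0.423 for both).

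Among 10 genes for partners of CD44, Mmp14 and Spp1 passed as lower. Spp1 encodes osteopontin, a CD44 ligand made by macrophages in scarred lung, and was at 4952, 4215, 3941 and 3820 CPM in BLM and 703, 3054 and 994 CPM in BLM+HBO. Mmp14 encodes a membrane protease that can shed CD44, and was at 477, 468, 407 and 394 CPM in BLM and 127, 382 and 230.5 CPM in BLM+HBO. For both genes every HBO-treated mouse was below every BLM mouse, with BLM+HBO 2 the nearest. Their log2 fold changes were -1.42 with a standard error of 0.44 and -0.82 with a standard error of 0.30 (edgeR adjusted P = 0.423 and 0.429). Without BLM+HBO 2 they were -2.32 and -1.29, and Mmp14 no longer passed the thresholds without BLM+HBO 1 (-0.51) or without BLM+HBO 3 (-0.78).

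**Figure D4:**
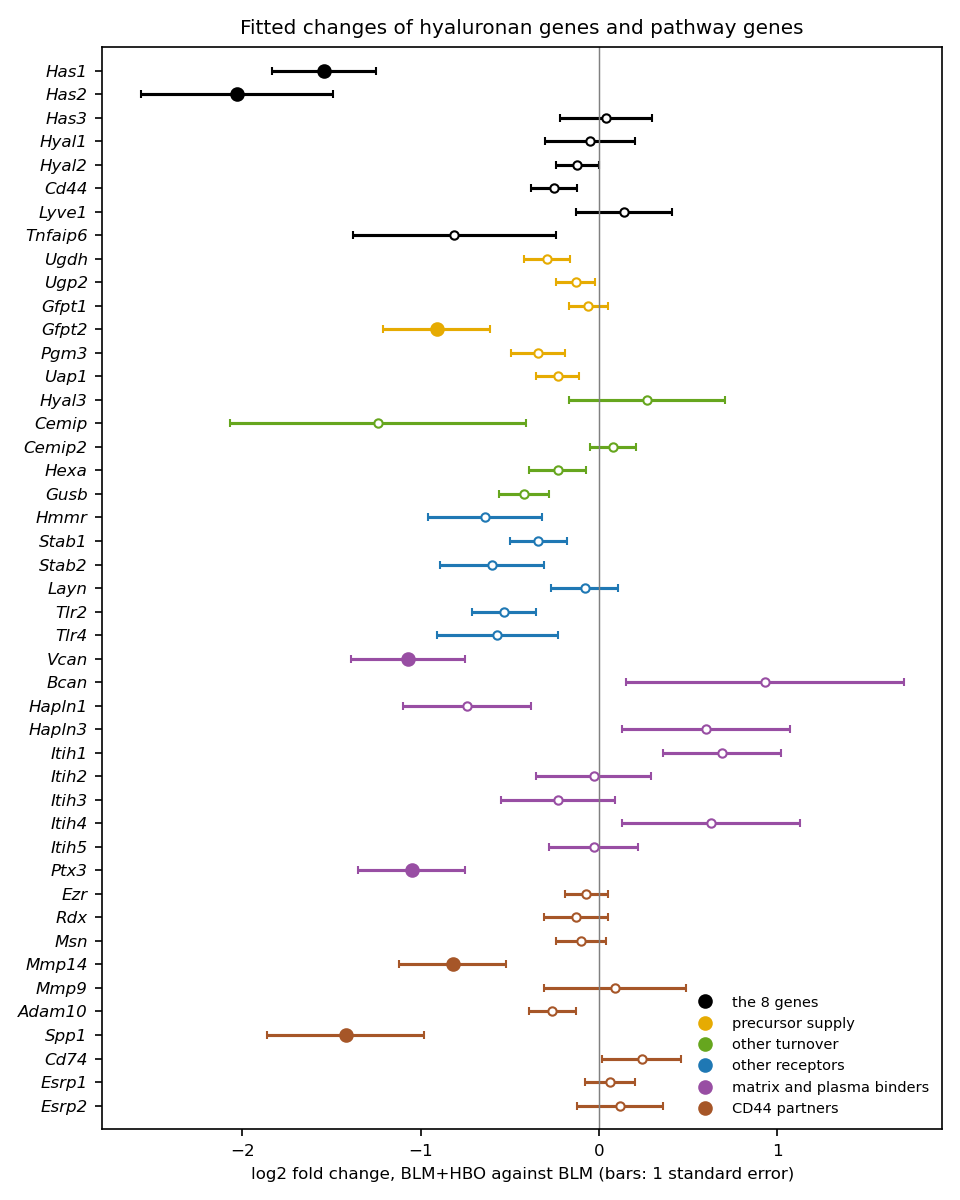
Log2 fold change of BLM+HBO against BLM (x axis, bars of 1 standard error) for the 8 genes and for other tested pathway genes, coloured by list, with filled points for genes past the thresholds. Has2 at -2.03 and Has1 at -1.54 lie farthest to the left.

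Markers of several cell types were also lower in BLM+HBO, as Has1 and Has2 were. Of all genes tested, 2.89% were called lower and 3.4% higher, and the marker lists were chosen with earlier results of these data known. In a whole-lung sample, fewer cells of a type and less RNA per cell cannot be told apart. All 7 fibroblast markers had a lower mean in BLM+HBO and 5 passed the thresholds, Col1a1, Col1a2, Col3a1, Dcn and Lum, with summed levels of 6154 to 9977 CPM in BLM and 2002, 6591 and 3470.1 CPM in BLM+HBO. All 6 markers of activated fibroblasts had a lower mean and 3 passed (Cthrc1, Tnc and Acta2), with sums of 1163 to 1859 CPM in BLM and 545, 1023 and 703 CPM in BLM+HBO. For mesothelium, the cell layer that covers the lung, 6 of 6 tested markers had a lower mean and Msln and Wt1 passed, with sums of 511 to 798 CPM in BLM and 357, 569.5 and 168 CPM in BLM+HBO. BLM+HBO 2 was the highest HBO-treated mouse for all 3 sums, as it was for Has1 and Has2. Within BLM, the fibroblast and activated fibroblast sums were highest in BLM 1, where Has1 and Has2 were highest. The mesothelium sum was highest in BLM 3, where Has1 and Has2 were lowest, and Msln made up 501 of its 798 CPM. Of the tested mesothelium markers, Msln and Upk3b were highest in BLM 3, Wt1, Lrrn4 and Upk1b in BLM 1, and Gpm6a in BLM 2. Monocyte and interstitial macrophage markers also had a lower mean in 6 of 7, with 5 past the thresholds and sums of 991 to 1611 CPM in BLM and 581, 972 and 556 CPM in BLM+HBO. Alveolar macrophage markers were split, with 3 lower means, all past the thresholds (Chil3, Marco and Mrc1), and 3 higher means, none past them. Markers of alveolar type 2 cells and capillary endothelium had a higher mean in BLM+HBO in 6 of 6 each and club cell markers in 3 of 4, with Sftpa1, Tmem100, Scgb1a1 and Cyp2f2 past the thresholds. No marker of the fibroblast, activated fibroblast or mesothelium lists was at 0 in every mouse. The part of these cells, and of the heart muscle RNA described above, in the difference in Has1 and Has2 was not tested.

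**Figure D5:**
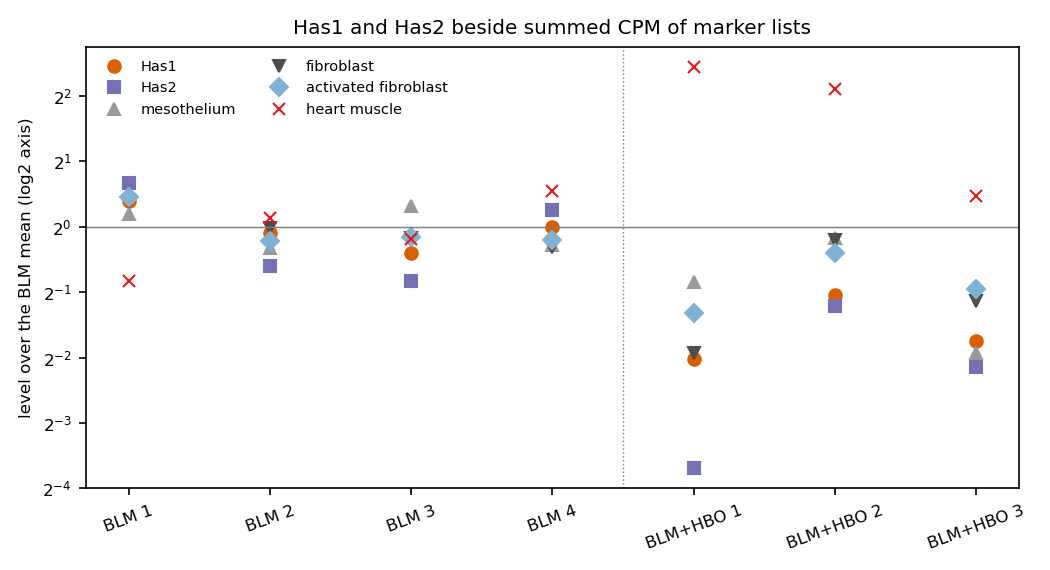
Level of Has1, Has2 and the summed markers of 4 lists in each mouse, divided by its mean over the 4 BLM mice (log2 axis). Has1, Has2, fibroblast, activated fibroblast and mesothelium values lie lowest in BLM+HBO 1 or BLM+HBO 3, and heart muscle values lie highest in BLM+HBO 1 and BLM+HBO 2.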

How the data were processed

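Right lung lobes of 4 BLM and 3 BLM+HBO mice were sequenced as NEBNext Ultra RNA libraries. The authors mapped trimmed reads to GRCm38 with HISAT2 2.2.0 and made the deposited raw counts per gene with featureCounts, listed as 2.2.0 in the submitters' processing notes, without normalization. The gene annotation release is not given in the sources used here. Symbols came from GENCODE vM21, which named 55141 of 55401 genes.

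Low genes were removed by filterByExpr (at least 10 counts, at least 15 in total), and the rest were normalized by TMM and fitted with edgeR 4.0.16 (quasi-likelihood, R 4.3.3, BLM as reference), after the steps were tested on simulated data. Thresholds were an unadjusted P below 0.05 and a fold change above 1.5, with Benjamini-Hochberg adjustment over 17465 genes. TPM was computed from the counts and the deposited gene lengths, and log ratios used a pseudocount of 0.01 TPM. Neighbours in level were compared by an exact sign-flip permutation test (scipy 1.17.1). Log2 CPM used a prior count of 2. Coding sequences were aligned with Biopython 1.88. DESeq2 1.42.0, limma 3.58.1, other scaling factors, other filters, a replicate block and leaving out each mouse were alternatives.

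The 8 genes and all lists were chosen with earlier results of these data known. Named genes were the 8, listed genes past the thresholds, up to 6 further partners or neighbours, and the 3 protein-coding genes (mean CPM of at least 1) most like each of the 8. Genes at 0, those whose groups did not overlap, Gfpt1 and the binders with a higher mean were named after their values were seen. A gene of the turnover list was counted but is not reported here by name. No pair of replicates agreed within sampling noise, with a mean chi-square per gene between 22.1 and 64.3.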

Additional observations from a re-analysis of the deposited data

How the results depend on the processing

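Has1, Has2, Hyal2, Cd44 and Tnfaip6 kept their direction in all 15 other fits, and every one of the 8 genes moved by less than the within-group SD. Leaving out 1 mouse gave log2 fold changes of -1.87 to -1.35 for Has1, -2.69 to -1.62 for Has2, -0.06 to 0.13 for Has3, -0.25 to 0.10 for Hyal1, -0.24 to -0.05 for Hyal2, -0.37 to -0.15 for Cd44, -0.14 to 0.36 for Lyve1 and -1.38 to -0.27 for Tnfaip6. Hyal1 and Lyve1 had the opposite sign in 3 fits each and Has3 in 4.

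Of the other pathway genes, limma-trend put 8 past the thresholds as lower, beside 595 of all 17465 genes tested. With no filter on low counts, 8 were lower and 1 higher, beside 863 and 1077 of all 32896 genes tested. The main fit called 504 lower and 594 higher of 17465. A fold change above 2 left 3 as lower and P below 0.01 left 3, neither with a count over all genes. Leaving out 1 mouse gave 5 to 10 as lower and 0 to 1 as higher, the highest counts without BLM+HBO 2. Over all genes, the same fits called 303 to 968 lower and 345 to 946 higher, also highest without BLM+HBO 2. Vcan, Ptx3 and Spp1 passed in 17 of 17 alternatives, Gfpt2 in 15 and Mmp14 in 13. Across all genes, an adjusted P below 0.05 was reached by 387 genes with no filter and by 267 without BLM+HBO 2.

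Mice that share a replicate number had correlations of -0.00797, -0.066 and 0.161 over genes, after each group's mean was removed. Such values, which were not tested, show no clear pairing and cannot exclude it. With a replicate block, 7 pathway genes were lower and none higher, beside 586 lower and 672 higher of all 17465 genes tested. In that fit Has1 and Has2 had log2 fold changes of -1.55 and -1.92.

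For the order of levels, the 4 consistent pairs reached an exact permutation adjusted P of 0.0547 with 6 mice, since fewer mice give a larger smallest P, and leaving out 1 mouse gave log2 ratios of 1.18 to 1.42 for Lyve1 over Cd44, 0.49 to 0.61 for Cd44 over Hyal2, 3.52 to 4.21 for Hyal2 over Has2 and 1.30 to 1.65 for Has1 over Has3. Tnfaip6 over Has1 ranged from -0.14 to 0.35 and reversed to -0.03 without BLM 4 and -0.14 without BLM+HBO 3. Other lengths were chosen after seeing the data. With the longest coding transcript as length, Cd44 over Hyal2 was 0.13 and Tnfaip6 over Has1 reversed to -1.0. Without bases shared with other genes, Hyal1 stood above Has2 (-1.43 for Has2 over Hyal1, exact permutation adjusted P = 0.0365) and above Tnfaip6 (1.70, exact permutation adjusted P = 0.0219). The 3 BLM+HBO mice and the 2.34 to 4.64 CPM of Has1 in them limit precision.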
